A study of Saccharomyces cerevisiae with 13 samples.

Results

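The genes described here encode the proteasome of the budding yeast Saccharomyces cerevisiae together with RPN4, the transcription factor that activates their promoters. The 33 members were chosen by function: 14 genes of the 20S core particle, 18 genes of the 19S regulatory particle, and RPN4. Each was represented by the brightest probe set annotated to it, and all 33 were among the 5102 genes tested. The rule for membership uses function only, not a measured value, but the members were chosen with earlier results of these data known.

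The data are 13 one-colour Affymetrix expression arrays of total RNA. The 5 spermidine arrays and the 3 spermine arrays carried RNA from a mutant lacking SPE3, which encodes spermidine synthase, and FMS1, which encodes a polyamine oxidase, after the culture had been given spermidine or spermine. The 5 control arrays are labelled only as control, with no genotype, and the series title speaks of a single polyamine-deficient mutant. The sources used here give neither the amount nor the time of treatment. Separate cultures are not stated for the arrays of a group, so a p-value reflects only the spread among these arrays, which could be technical.

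The proteasome degrades proteins that carry ubiquitin chains. Its 20S core is a barrel of stacked alpha and beta rings with the proteolytic sites on certain beta subunits, and its 19S particle binds the substrate, removes ubiquitin, unfolds the protein with a ring of ATPases and feeds it into the barrel. In yeast the subunit genes share a promoter element bound by Rpn4, a protein that the proteasome itself degrades quickly, so that Rpn4 accumulates and its targets are transcribed more when proteasome capacity is short. RPN4 transcription is in turn raised by stress regulators such as Hsf1 and Yap1.

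The deleted genes were near the bottom of every array: SPE3 signals lay between 0.570 and 13.8 and FMS1 signals between 1.10 and 8.10, at or below the 10.6 percentile, on control arrays as on the others. Array medians ranged from 125 to 162. All members were well measured, with deposited signals between 173 and 3231 and none below the 55.0 percentile of its array. The array number limits the precision: the standard error of a log2 difference for a subunit gene was 0.11 to 0.22 between spermidine and control, and 0.13 to 0.25 where the spermine arrays were involved. Controls 2 and 3 stood apart from controls 1, 4 and 5 in genes of the general stress response. Over 24 such genes the median difference from the control mean was 1.06 log2 units on control 2, 0.88 on control 3, and -0.75, -0.48 and -0.67 on the other controls. It lay at 0.51, -1.06 and -0.42 on spermine 1 to 3 and between -1.66 and -1.04 on the spermidine arrays.

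Spermidine against control set the mutant given spermidine beside the arrays labelled only as control. The transcript of RPN4 fell 2-fold, whereas most subunit genes stayed close to their control values. RPN4 (YDL020C) had signals of 336, 261, 294, 369 and 237 on the 5 spermidine arrays, against 477, 899, 991, 457 and 353 on the 5 control arrays. The spermidine values were close together and the control values were not, controls 2 and 3 lying far above the other controls. The mean was 299 ± 54.0 with spermidine and 636 ± 289 in controls (SD, n = 5 each). On the normalized log2 scale the difference was -1.001 ± 0.26 (SE), with a 95% interval of -1.57 to -0.44 and an adjusted p of 0.00961 by limma. The groups did not overlap on that scale, while on the deposited scale the highest spermidine array, 369, passed the lowest control, 353.

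The size of the fall depended on which controls were used. RPN4 deviated from its control mean by 0.63 and 0.78 log2 units on controls 2 and 3, the arrays with high stress markers, and by -0.33, -0.36 and -0.72 on controls 1, 4 and 5. With controls 2 and 3 left out the difference was -0.53 (limma adjusted p = 0.0459), and with those arrays and spermine 1 fitted as a block it was -0.61 (limma adjusted p = 0.00887). Both settings were chosen with the data known. RPN4 kept its call in all 27 alternative settings. With all 5 controls, 11 of the 24 stress genes, or 45.8%, were lower with spermidine, where 14.7% of all genes tested were called lower. The median of the stress genes was -1.31. Spermine against control had 0 of the 24 called, where 0.0196% of all genes were. Spermine against spermidine had 7, or 29.2%, called higher, where 9.41% of all genes were. The part of the stress genes in the RPN4 result was not tested.

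Of the 33 members, 3 rose and 1 fell with spermidine, together 12.1%, where 32.6% of all genes tested were called. The share called higher was 9.09% of members against 17.9% of all genes, and the share called lower 3.03% against the 14.7% given above. The groups did not overlap for 3 members, or 9.09%, compared with 23.5% of all genes; PRE1 and PRE3 lay wholly above control, as did 14.1% of all genes, and RPN4 wholly below it, as did 9.39%. An unadjusted p under 0.05 was found for 7 of 33 members and for 42.9% of all genes. Differences of at least 0.5 log2 units were found in 3 of 33 members and in 34.0% of all genes. The median over the members was 0.10, next to 0.02 over all genes, and the quartiles of the members were -0.16 and 0.24. With the dimmest 50% of probe sets left out, which leaves genes of levels more like the members', 34.5% of genes and the same number of members, 4 of 33, were called.

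**Figure D1:**
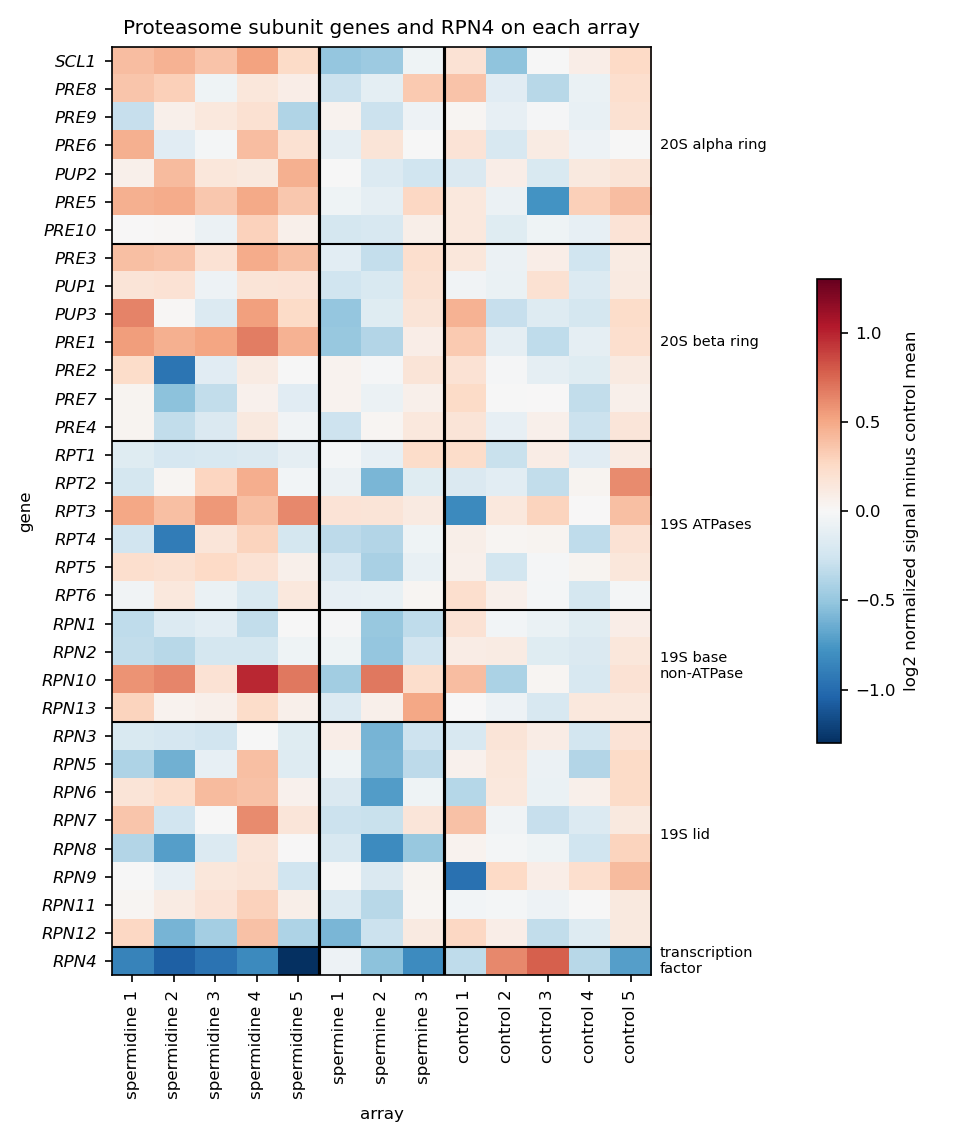
Heat map of the 33 members (rows, grouped by their place in the proteasome) on the 13 arrays (columns), coloured by the normalized log2 signal minus the mean of the 5 controls. RPN4, in the bottom row, is blue on all 5 spermidine arrays (-1.29 to -0.83) and red on controls 2 and 3, while most subunit rows are pale.

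The core particle held 2 of the subunit genes that rose. PRE1 (YER012W), the beta-4 subunit, had signals of 998, 885, 927, 1099.7 and 905 on the spermidine arrays, against 848, 599.8, 528, 608 and 791 on the control arrays. All spermidine arrays were above all controls. The difference was 0.53 ± 0.15 log2 units, or 1.44-fold (limma adjusted p = 0.0165). PRE3 (YJL001W), the beta-1 subunit with caspase-like activity, had 1741, 1745, 1541, 1841 and 1755 with spermidine, against 1458, 1231, 1392, 1088 and 1415 in controls. These groups did not overlap either, and the difference was 0.36 ± 0.13 log2 units, or 1.29-fold (limma adjusted p = 0.0409).

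The other catalytic beta subunits were not called. PRE2, the beta-5 subunit with chymotrypsin-like activity, had a log2 difference of -0.15 (95% interval -0.55 to 0.24), and PUP1, the beta-2 subunit with trypsin-like activity, 0.13 (95% interval -0.14 to 0.39). The smallest difference in the beta ring was that of PRE4, the beta-7 subunit, at -0.08. PUP3 of the beta-3 position stood at 0.25 and PRE7 of the beta-6 position at -0.18. In the alpha ring, whose subunits gate the entrance of the barrel, 6 of 7 genes had values above control, as did 2637 of all 5102 genes. By limma 0 of the 7 were called, where 32.6% of all genes were. Among all genes 42.9% had an unadjusted p under 0.05, and 2 of the 7 did. These were PRE5 (alpha-6), the largest at 0.43 ± 0.19 (limma adjusted p = 0.0953), and SCL1 (alpha-1) at 0.40 ± 0.15 (limma adjusted p = 0.0629). PRE9 (alpha-3), the only core subunit gene that yeast can lose and live, had the smallest difference in the ring, -0.06.

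In the regulatory particle the called gene was RPN10 (YHR200W), a ubiquitin receptor at the junction of base and lid. Its signals were 1599, 1662, 1185, 2034 and 1697 on the spermidine arrays, against 1386, 781, 1043, 906 and 1192 on the control arrays. Spermidine 3, at 1185, fell within the range of the controls and the other spermidine arrays lay above it. The difference was 0.62 ± 0.22 log2 units, or 1.53-fold (limma adjusted p = 0.0412). RPN13, also a ubiquitin receptor, had 0.14, the smallest value among the base genes that are not ATPases. The scaffold genes RPN1 and RPN2 had -0.20 and -0.24, neither called.

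Of the 6 ATPase genes, 0 were called by limma, where 32.6% of all genes were. Among all genes 42.9% had an unadjusted p under 0.05, and 1 of the 6 did. This was RPT3 with 0.50 ± 0.19 (limma adjusted p = 0.0596), whose signals were 613, 533, 604, 576 and 641 with spermidine, against 232, 449, 510.2, 412 and 549 in controls. RPT6 was the member closest to control, with 1994, 2345, 2018, 1811 and 2303 on the spermidine arrays, against 2371, 2222, 2013, 1723 and 2023 on the control arrays. Its difference was -0.01 with a 95% interval of -0.25 to 0.23. Of the 8 lid genes, 0 were called by limma and 0 had an unadjusted p under 0.05, against 32.6% and 42.9% of all genes. RPN6, which clamps the lid to the core, was the largest at 0.25 and RPN9 the smallest at -0.01. RPN11, the deubiquitinase of the lid, had 0.14 (95% interval -0.10 to 0.37).

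The calls of the 3 rises depended on which arrays were used, and those of PRE3 and RPN10 lay near the threshold. Without controls 2 and 3 all of them lost their call: PRE1 had 0.38 (limma adjusted p = 0.0963), PRE3 0.37 (limma adjusted p = 0.0868) and RPN10 0.48 (limma adjusted p = 0.154), and RPT3 was called instead at 0.64 (limma adjusted p = 0.0423). PRE1 kept its call when any single array was left out. PRE3 lost it without spermidine 1, 2, 4 or 5 or control 2, 4 or 5, with values of 0.30 to 0.39 and adjusted p of 0.0512 to 0.0949. RPN10 lost it without spermidine 1, 2, 4 or 5, spermine 3, or control 2, 3 or 4, with values of 0.51 to 0.62 and adjusted p of 0.0515 to 0.0984. RPT3 gained a call without control 3 (0.57, limma adjusted p = 0.0466) or control 5 (0.59, limma adjusted p = 0.0346). For 31 of the 32 subunit genes the 95% interval lay within a 2-fold change in both directions, the exception being RPN10, whose upper bound was 1.08 log2 units. The bounds reached down to -0.61 log2 units, for RPN12.

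**Figure D2:**
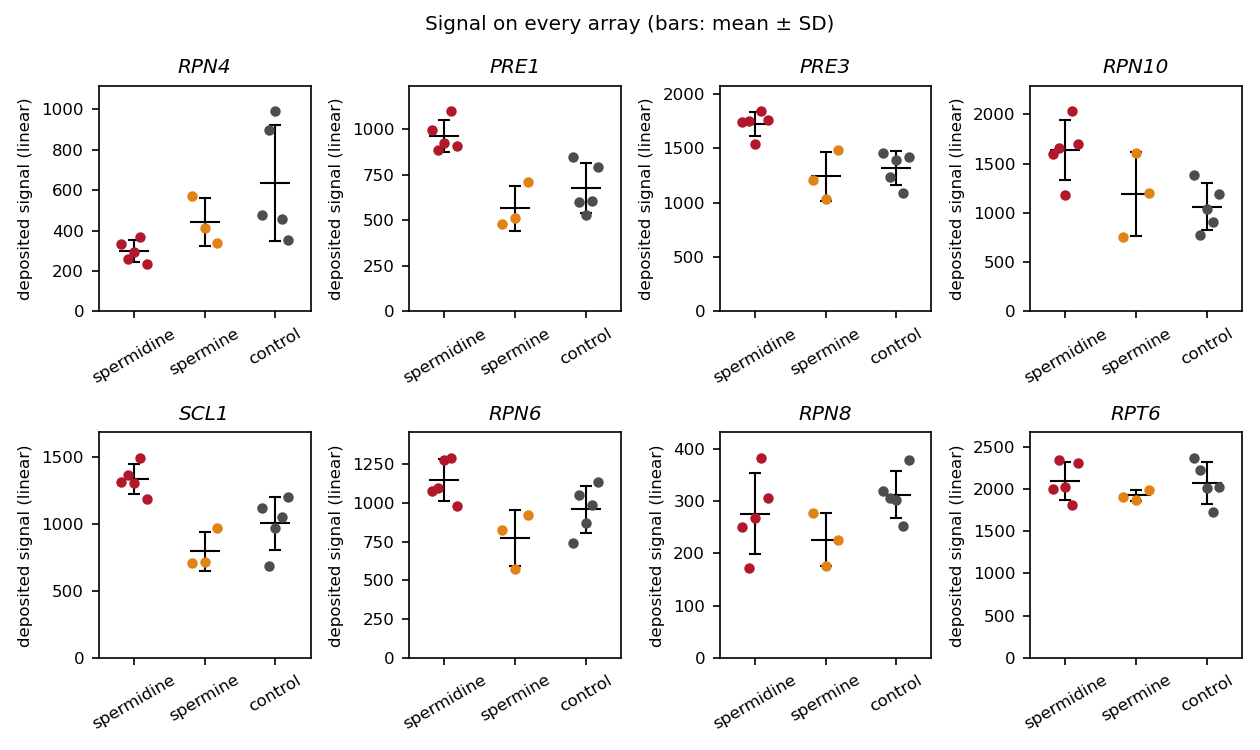
Deposited signals (linear scale, from 0) of 8 members on every spermidine, spermine and control array, with the mean and SD of each group as bars. RPN4 is low on all spermidine arrays and spreads from 353 to 991 among controls, PRE1 and PRE3 lie higher with spermidine than in controls, and RPT6 shows no separation.

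Spermine against control made the same comparison for the polyamine that carries an additional aminopropyl group. Among the members 0 rose and 0 fell by limma, 1 of them (RPN8) having an unadjusted p under 0.05, where 0.0196% of all genes were called and 8.53% had an unadjusted p under 0.05. The groups overlapped for every member, while 6.43% of all genes showed no overlap, 3.84% lying above and 2.59% below control. Of the 33 members 25 lay below control, as did 2358 of all 5102 genes. The members had a median of -0.14, next to 0.02 over all genes. Their median from the control mean was -0.14 on spermine 1, -0.28 on spermine 2 and 0.04 on spermine 3.

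RPN4 had signals of 571, 412 and 339.8 on the 3 spermine arrays, against the control values given above. Spermine 1, the spermine array with the highest stress markers, was also the highest in RPN4, and all 3 arrays lay within or below the range of the controls. The log2 difference was -0.47 ± 0.30 (95% interval -1.13 to 0.18, limma adjusted p = 0.745), so a fall as large as that seen with spermidine lay within the interval. It was -0.0041 with controls 2 and 3 left out, -0.21 with these arrays and spermine 1 left out, and -0.41 (limma adjusted p = 0.368) with them as a block.

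RPN8, a lid subunit that pairs with RPN11, had the largest difference of any member with spermine. Its signals were 277, 175 and 226 with spermine, against 319.6, 306, 302 and 253 in controls 1 to 4 and 378 in control 5. Spermine 1 lay within the range of the controls, and spermine 2 and 3 lay below it. The difference was -0.50 ± 0.21 (95% interval -0.94 to -0.06, limma adjusted p = 0.514). All 8 lid members were below control, as were 2358 of all 5102 genes. They lay between -0.50 and -0.05 with a median of -0.26, and 0 of them were called, where 0.0196% of all genes were. The lid median from the control mean was -0.18 on spermine 1, -0.47 on spermine 2 and -0.01 on spermine 3. SEM1, a small lid protein counted here among the accessory factors, had 279, 220.3 and 301 with spermine, against 134, 237, 255, 321 and 381 in controls, a difference of 0.05 ± 0.26. The other 19S genes had medians of -0.15 for the ATPases, with RPT2 the largest at -0.28, and -0.07 for the remaining base genes, with RPN1 the largest at -0.28. Core genes had a median of -0.08, SCL1 being the largest in the alpha ring at -0.34 ± 0.18 and PRE1 in the beta ring at -0.26 ± 0.18. The members nearest to control were the core genes PRE7 and PRE6, both at 0.01. For all 32 subunit genes the 95% interval excluded a change of 2-fold or more in either direction, the outermost bounds being -0.94 for RPN8 and 0.69 for RPN10.

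**Figure D3:**
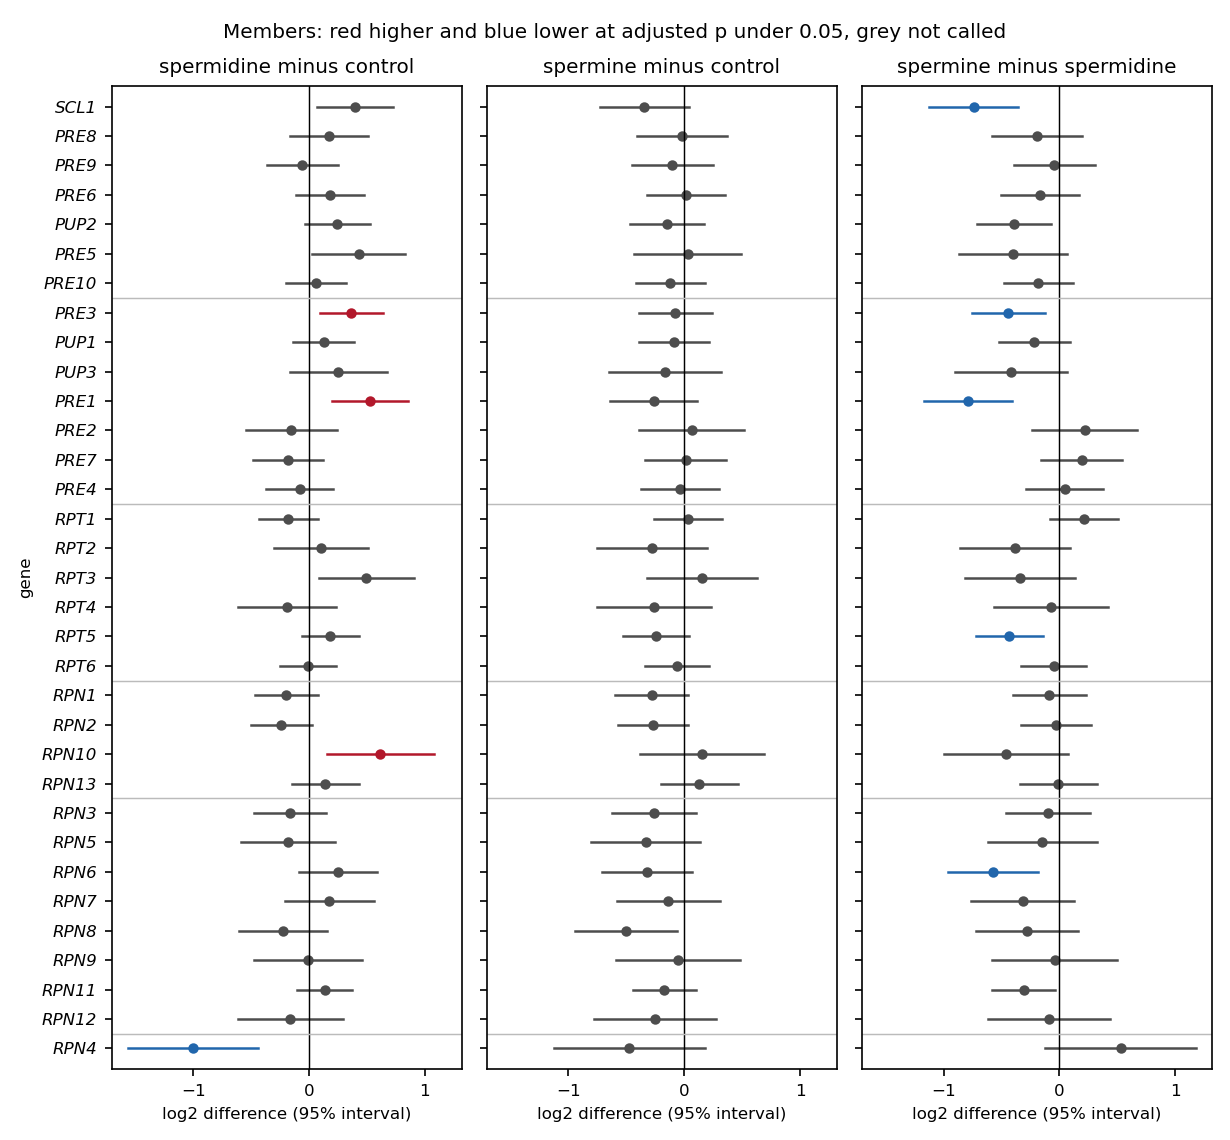
Log2 difference (points) and 95% interval (lines) of each member in 3 panels that set spermidine against control, spermine against control, and spermine against spermidine, in the order alpha ring, beta ring, ATPases, other base genes, lid and RPN4. Coloured members passed an adjusted p under 0.05: 4 in the left panel, 0 in the middle panel and 5 in the right panel.

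The 2 polyamines were compared directly in 1 contrast over all 5102 genes. Spermidine is a triamine and spermine a tetramine; whether their amounts and times were matched cannot be told from the labels. Both were set above against the same 5 control arrays, and the direct contrast uses none of them in its means. Of the 33 members 0 were higher and 5 lower with spermine than with spermidine, 15.2% of members where 20.5% of all genes were called, 9.41% higher and 11.1% lower. The groups did not overlap for 9 members, 27.3%, next to 27.6% of all genes, shares that hardly differ: 7 members lay wholly lower with spermine, as did 14.8% of all genes, and 2 wholly higher, as did 12.8%. An unadjusted p under 0.05 was found for 7 of 33 members and for 34.4% of all genes. The median was -0.18, next to 0.01 over all genes, and 28 members had values below 0, as did 2514 of all 5102 genes.

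PRE1 had signals of 478, 515 and 708 with spermine, against 998, 885, 927, 1099.7 and 905 with spermidine. Every spermine array was below every spermidine array, and the difference was -0.79 ± 0.18 log2 units (95% interval -1.17 to -0.41, limma adjusted p = 0.00557). SCL1 (YGL011C), whose protein is the alpha-1 subunit, had 712, 714 and 969 with spermine, against 1314, 1367, 1307, 1499 and 1191 with spermidine. The groups were again apart, by -0.74 ± 0.18 (limma adjusted p = 0.00906). The control values of SCL1, 1125, 685, 970.1, 1053 and 1203, lay between and across both, and neither contrast with control was called.

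The lid gene RPN6 (YDL097C) had 823, 574 and 924 with spermine, against 1079, 1099.0, 1278, 1292 and 983 with spermidine, a difference of -0.57 ± 0.18 (limma adjusted p = 0.0377). The ATPase gene RPT5 (YOR117W) had 671, 576 and 726 with spermine, against 919, 861, 908, 906 and 795 with spermidine, a difference of -0.43 ± 0.13 (limma adjusted p = 0.0344). Neither pair of groups overlapped. PRE3 had 1204, 1036 and 1485 with spermine, against the spermidine values given above, and differed by -0.44 ± 0.15 (limma adjusted p = 0.0475); on the normalized scale its groups overlapped. PRE1 and SCL1 kept their calls without any single array. RPN6 and RPT5 each lost theirs without spermidine 1, 2, 3 or 4 or spermine 1 or 2, with values of -0.64 to -0.37 and of -0.45 to -0.34 and adjusted p of 0.0544 to 0.202 and of 0.0529 to 0.152. PRE3 lost its call without each of 10 arrays (spermidine 1, 2, 4 and 5, spermine 1 and 2, and control 1, 2, 3 and 5), with values of -0.44 to -0.32 and adjusted p of 0.0524 to 0.208.

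RPN4 was higher with spermine than with spermidine by 0.53 ± 0.30 log2 units, which did not pass the threshold (95% interval -0.12 to 1.18, limma adjusted p = 0.240). On the normalized scale RPN4 lay wholly higher with spermine, as did 12.8% of all genes. On the deposited scale spermine 3, at 339.8, lay within the spermidine range. A difference of up to 1.18 log2 units between the polyamines therefore lay within the interval. The difference was 0.33 without spermine 1 and 0.70 without spermine 3. Without controls 2 and 3 it was 0.53 (limma adjusted p = 0.0533), and 0.33 with spermine 1 left out as well. With these arrays as a block it was 0.20, and it was not called in any of these fits. For the subunit genes the bounds ran from -1.17, for PRE1, to 0.67, for PRE2, and 30 of the 32 intervals excluded a 2-fold change.

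**Figure D4:**
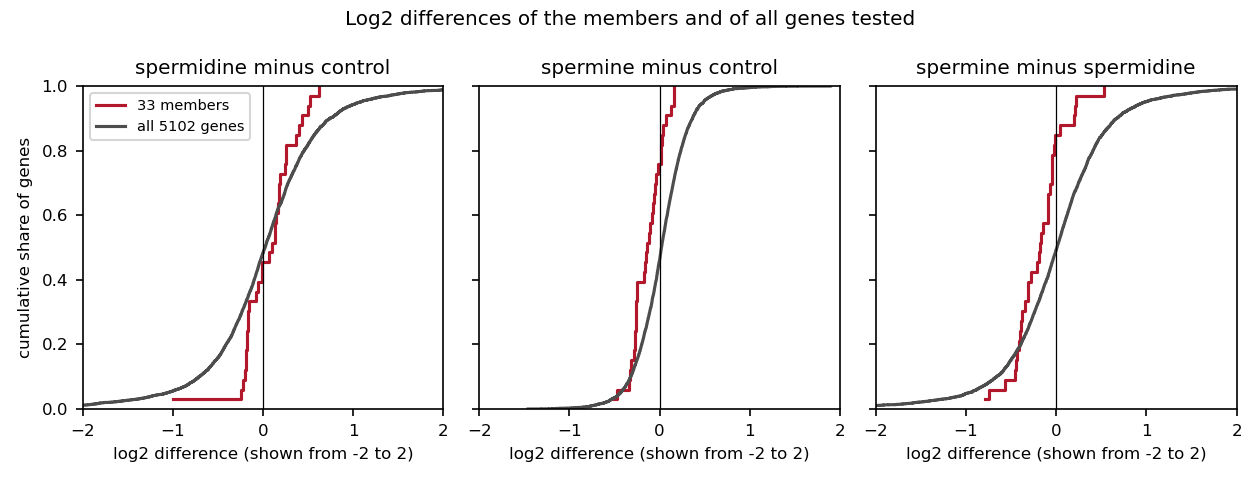
Cumulative share of genes by log2 difference for the 33 members (red) and all 5102 genes tested (grey) in each of the 3 contrasts, shown from -2 to 2. The red curve is steeper than the grey one for spermidine minus control, with RPN4 as its lowest step, and lies to the left of it over most of its course in the contrasts that involve spermine.

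PRE3 and RPT5 were measured by several probe sets, and the other 31 members by 1 each. The 3 probe sets of PRE3 gave 0.36 for the brightest and 0.32 and 0.57 for the others with spermidine against control, and -0.44, -0.28 and -0.72 with spermine against spermidine. For RPT5 the brightest probe set gave 0.19 and the next ones 0.48 and 0.36 with spermidine against control, and -0.43, -0.56 and -0.76 with spermine against spermidine. With the mean of a gene's probe sets the calls of both genes ended: PRE3 had 0.42 with spermidine against control (limma adjusted p = 0.0532) and -0.48 in the direct contrast (limma adjusted p = 0.0726), and RPT5 -0.58 in the direct contrast (limma adjusted p = 0.0538). A further RPT5 probe set, with signals of 1.88 to 37.3, was too dim to be tested and gave -1.44 and 1.05.

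Among genes whose products help to build the proteasome, called differences with spermidine spanned -1.10 to 1.59 log2 units, while the 32 subunit genes lay between -0.24 and 0.62. Of 17 assembly and accessory factors 3 rose and 2 fell with spermidine, 29.4% where 32.6% of all genes were called, with a median of 0.10; without spermidine 3 the number higher was 5. SPG5, a factor needed for proteasome assembly in stationary phase, had 788, 699.6, 724, 906 and 766 on the spermidine arrays, against 144, 421, 141, 431 and 298 on the control arrays. All spermidine values exceeded all controls, and the rise was 3.01-fold (log2 1.59 ± 0.29, limma adjusted p = 7.57e-04). ADD66, which assists the assembly of the alpha ring, had 433, 406, 397, 530.5 and 412 with spermidine, against 279, 228, 275, 204 and 258 in controls. It rose 1.74-fold (log2 0.80 ± 0.12, limma adjusted p = 1.97e-04) without overlap. PBA1, its partner in a chaperone dimer and named here after its values were seen, rose by log2 0.59 ± 0.13 (limma adjusted p = 0.00290).

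The other chaperone pair of the alpha ring went the opposite way. POC4 had 272, 261, 267, 349.8 and 319.8 on the spermidine arrays, against 724, 442, 606, 683 and 700.3 on the control arrays. It fell 2.14-fold (log2 -1.10 ± 0.17, limma adjusted p = 1.91e-04), with no overlap. IRC25, the partner of POC4, had 169.6, 193, 142, 206 and 156 with spermidine, against 340.0, 281, 314, 288 and 238 in controls, a fall of 0.78 ± 0.17 on the log2 scale (limma adjusted p = 0.00244), again with no overlap. UMP1, which is needed for the maturation of the core and is degraded as its first substrate, had -0.24 and was not called. With controls 2 and 3 left out these called factors kept their calls, at 1.53 for SPG5, 0.81 for ADD66, 0.56 for PBA1, -1.27 for POC4 and -0.77 for IRC25.

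With spermine 0 of the 17 factors were called against control by limma, where 0.0196% of all genes were. An unadjusted p under 0.05 was found for 0 of the 17 and for 8.53% of all genes. In the direct contrast 3 were lower and 1 higher with spermine than with spermidine, 23.5% where 20.5% of all genes were called. POC4 was higher by 1.04 ± 0.20 log2 units (limma adjusted p = 0.00163), with 444, 759 and 648 on the spermine arrays. SPG5, PBA1 and ADD66 were lower by 1.39, 0.89 and 0.83 log2 units with spermine than with spermidine. Their adjusted p by limma were 0.00860, 7.53e-04 and 8.01e-04.

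**Figure D5:**
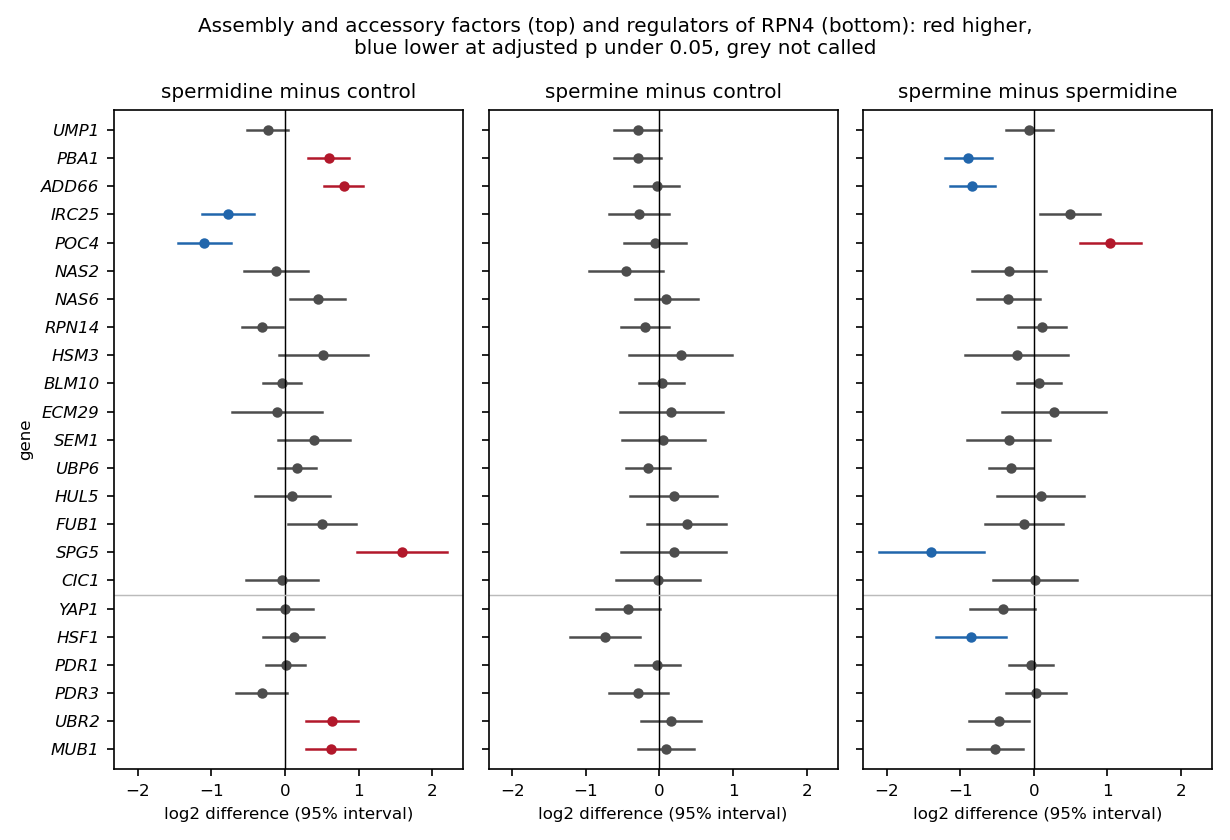
Log2 difference (points) and 95% interval (lines) of 17 proteasome assembly and accessory factors, above the line, and 6 regulators of RPN4, below it, in the 3 contrasts. With spermidine minus control SPG5, ADD66, PBA1, UBR2 and MUB1 are higher and POC4 and IRC25 lower; with spermine minus control 0 are called.

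Of the 6 regulators of RPN4, 2 rose with spermidine and 0 fell, 33.3% where 32.6% of all genes were called. Both belong to the ubiquitin ligase that marks the Rpn4 protein for degradation. UBR2, the ligase, had 120.1, 84.0, 93.9, 145 and 149 on the spermidine arrays, against 65.2, 70.9, 108, 67.9 and 65.0 on the control arrays. Control 3, at 108, lay inside the spermidine range and the other controls below it. The rise was 1.55-fold (log2 0.63 ± 0.17, limma adjusted p = 0.00903). MUB1, which works with UBR2, had 269, 238, 264, 273 and 239 with spermidine, against 177, 162, 202, 138 and 147 in controls, without overlap, and rose 1.54-fold (log2 0.62 ± 0.15, limma adjusted p = 0.00690).

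The transcription factor genes of this list were not called with spermidine: HSF1 of the heat shock response had 0.11, YAP1 of the oxidative stress response 0.00 with an interval of -0.38 to 0.38, and the drug resistance regulators PDR1 and PDR3 had 0.01 and -0.32. With spermine 0 of the 6 passed the test against control by limma, where 0.0196% of all genes did. An unadjusted p under 0.05 was found for 1 of the 6 (HSF1, at -0.74) and for 8.53% of all genes. HSF1 had 184, 200.04 and 144 on the spermine arrays, against 329.5, 206, 325, 489.7 and 256 on the spermidine arrays. It was lower with spermine by 0.85 ± 0.22 log2 units (limma adjusted p = 0.0145), and lost the call without spermine 3 (log2 -0.73, limma adjusted p = 0.0750). HSF1 was the 1 regulator of 6 called in that contrast, 16.7% where 20.5% of all genes were called.

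Of 30 genes of ubiquitin conjugation and delivery, 4 rose and 4 fell with spermidine, 26.7% where 32.6% of all genes were called, with a median of 0.11. The higher genes numbered 2 without spermidine 1, 2, 4 or 5 or control 4, and the lower genes 2 without spermidine 5 or control 3. DDI1, a shuttle that carries ubiquitinated proteins to the proteasome, fell by 0.84 ± 0.17 on the log2 scale (limma adjusted p = 0.00159), with 198, 209, 169, 214 and 166 on the spermidine arrays, against 401, 399, 305, 237 and 369 on the control arrays. UBC5, a stress-related ubiquitin-conjugating enzyme, fell by 0.73 ± 0.26 (limma adjusted p = 0.0415), but not without controls 2 and 3 (-0.48, limma adjusted p = 0.204). UBC5 also lost its call without each of 8 single arrays (spermidine 2, 3 and 5, spermine 2 and 3, and control 2, 3 and 4), at -0.75 to -0.54 with adjusted p of 0.0509 to 0.103. UBP14, which takes apart free ubiquitin chains, fell by 0.54 ± 0.15 (limma adjusted p = 0.0113). DOA1, a partner of the unfoldase Cdc48, rose by 0.52 ± 0.16 (limma adjusted p = 0.0193), and without spermidine 5 it had 0.46 (limma adjusted p = 0.0513).

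With spermine 0 of these 30 genes were called against control by limma, where 0.0196% of all genes were. An unadjusted p under 0.05 was found for 0 of the 30 and for 8.53% of all genes. Between the polyamines 1 gene was higher and 1 lower with spermine, 6.67% where 20.5% of all genes were called. UBC1, a ubiquitin-conjugating enzyme, was higher with spermine by 0.42 ± 0.14 (limma adjusted p = 0.0453) and NPL4, a cofactor of Cdc48, lower by 0.43 ± 0.14 (limma adjusted p = 0.0411). Both calls lay near the threshold. With single arrays left out UBC1 ran from 0.39 to 0.45 and NPL4 from -0.54 to -0.35. UBC1 lost its call without each of 10 arrays (every spermidine and spermine array and controls 4 and 5), with values of 0.39 to 0.45 and adjusted p of 0.0513 to 0.124. NPL4 lost it without each of 7 arrays (spermidine 1 to 4, spermine 2 and 3, and control 5), with values of -0.43 to -0.35 and adjusted p of 0.0527 to 0.165.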

How the data were processed

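The deposited values are linear intensities per probe set for 13 arrays. Per the submitters' processing notes the authors used MAS5 (no version given). The trimmed mean, with 2% removed at each end, was 500.4 to 500.5 on all arrays. Of 9335 probe sets, 60 controls were left out and 6504 name 1 gene in the platform annotation, matched to RefSeq symbols by gene number. Intensities were taken to log2 without a pseudocount and quantile normalized, because array medians differed by 1.29-fold. Probe sets in the lowest 25% of mean log2 level (signal under 37.8) were dropped, and each gene took its brightest probe set. A model of 3 group means for all 13 arrays was fitted with limma 3.58.1 under R 4.3.3, its variance prior following the intensity, and p-values were adjusted by Benjamini-Hochberg over 5102 genes, with a threshold of 0.05. A gene was called when it passed. After a log2 value ± is the SE; signals are the deposited ones, with SD. The fitting step was tested on simulated data with independent noise for each gene and array. That test did not cover deviations that many genes share on an array. Groups came from sample titles.

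Members and gene lists were chosen with earlier results of these data known. Named are RPN4, the members with the largest and smallest differences overall and per subgroup, all called members, and up to 4 called genes per list; further subunit genes were named for their roles, and RPT3 was followed through the alternatives after its values were seen. Alternatives were other normalizations, pseudocounts of 16 and 64, other filters, probe set means, no trend, array weights, 2-group fits, a replicate block, and each array left out. Fits without controls 2 and 3, also without spermine 1, or with these arrays as a block were added after the data were seen. Arrays with equal replicate numbers did not deviate together. Figures were drawn with matplotlib 3.10.9.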

Additional observations from a re-analysis of the deposited data

Results flagged for a closer look

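A single array stood far from the rest of its group in 2 of 66 groups of member values, where chance alone flags about 1 in 20 groups, or 3.3. RPN9 had a signal of 425 on control 1, against 862 to 1108 on the other controls, a gap of 0.766 of the group's whole range on the normalized scale. PUP1 had 1294 on spermidine 3, against 1508 to 1556 on the other spermidine arrays, a gap of 0.92 of the range. Neither gene was called in any contrast.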

How the results depend on the processing

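RPN4 kept its fall with spermidine in all 27 settings, between -1.18 and -0.53, and was called in 0 settings in the other contrasts. Medians over the members moved by less than the spread between arrays, but by over 1.5 times in places. With spermidine 0.10 became 0.04 without spermidine 4, 0.05 without control 3, 0.16 without control 5 and 0.00 without controls 2 and 3. With spermine -0.14 became -0.08 without spermine 1 or 2 and -0.23 without spermine 3, which also took the direct contrast to -0.28, where it was -0.18. The number of members called lower with spermidine stayed at 1, and with spermine against control 0 were called in every setting. Other counts varied. The 3 members higher with spermidine became 1 with arrays scaled to one median, 1 without controls 2 and 3, 1 also without spermine 1, 1 with these arrays as a block, and 1 to 4 with single arrays left out. The 5 members lower with spermine than with spermidine became 3 with arrays scaled to one median, 3 with probe set means, 3 in the 2-group fit, 3 without controls 2 and 3 and spermine 1, and 2 to 5 with single arrays left out. The cause was not tested. Equal replicate numbers did not pair the arrays: their deviations correlated between -0.57 and 0.20, over 0.1 in 1 of 11 pairs, and 1 of the 11 was its array's best partner. With the replicate block 0 members were higher with spermidine and 0 lower in the direct contrast, the ubiquitin genes higher and lower with spermidine numbered 0 and 2, where they were 4 and 4, and RPN4 stayed at -1.001 (limma adjusted p = 0.0173). Of 30 calls of single members and pathway genes other than RPN4, 13 held under each alternative that tested them, and 0 reversed. Over all genes the direct contrast called 1047 genes, and 622 with the replicate block.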

Other observations

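On spermine 2 several genes of the regulatory particle were low together. Relative to the control mean RPN8 stood at -0.81 log2 units, RPN6 at -0.72, RPN3 and RPT2 at -0.60, RPN5 at -0.59, and RPN1 and RPN2 at -0.50, while RPN10 stood at 0.69 on the same array. The median of the 18 regulatory particle genes was -0.37 there, next to -0.14 on spermine 1 and -0.01 on spermine 3, and that of the 14 core genes was -0.17, -0.18 and 0.11 on spermine 2, 1 and 3.

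Single arrays carried other large deviations; these genes and those above were picked after their values were seen. PRE2 stood at -0.95 and RPT4 at -0.91 on spermidine 2, PRE5 at -0.78 on control 3 and RPT3 at -0.82 on control 1. The median of the 32 subunit genes nevertheless stayed between -0.01 and 0.26 on the spermidine arrays and between -0.15 and 0.17 on the controls.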
